A study of Mus musculus with 6 samples.

Results

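Replication-dependent histone genes encode the linker histone H1 and the core histones H2A, H2B, H3 and H4. They were taken as every row of the gene count table whose symbol began with Hist1h to Hist4h and did not end in -ps. This gave 70 of 46078 listed genes, with 1 row left out for its -ps symbol. Of these, 49 reached 10 counts in at least 3 of the 6 libraries, and the same number passed the expression filter and were tested, while 9 had no count in any library. The members comprised 6 H1, 20 H2A, 19 H2B, 12 H3 and 13 H4 genes, of which 5, 8, 14, 10 and 12 were tested. Among them the GENCODE annotation types Hist1h2aj and Hist1h2al as pseudogenes and a row named Hist2h2bb as a long non-coding RNA. The cells were C2C12, an immortalized mouse myoblast line that fuses into myotubes when serum is withdrawn. The KO group carried a CRISPR-Cas9 knockout of Hnrnpa2b1, which encodes an RNA-binding protein, and the WT group kept the gene. In both groups RNA was taken after 2 days of differentiation. The medium for this lacked the growth serum, still held some horse serum by the methods, and contained insulin, transferrin and selenium. Total RNA, after removal of ribosomal RNA, gave 3 KO libraries (KO1 to KO3) and 3 WT libraries (WT1 to WT3). The methods describe several KO and WT clones picked with cloning rings, selected with puromycin after transfection, but the sources used here do not tie a clone to a library, so p-values measure only the spread between these libraries, and clone and genotype effects cannot be told apart.

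Most histone messages of this kind are transcribed in S phase, when new DNA must be packed into nucleosomes, and they end in a conserved stem-loop bound by SLBP in place of a poly(A) tail. U7 snRNP with its Lsm10 and Lsm11 subunits directs the cut after the stem-loop, and the message is degraded when DNA synthesis stops. A few members can also be made as polyadenylated messages in cells that have left the cycle, as happens to myoblasts that become myotubes. Total RNA without poly(A) selection keeps both forms, and these forms of a gene were not counted apart here.

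The stem-loop is printed first because it is the feature by which these messages are processed, and it was matched in the annotated transcripts of GENCODE M21 on GRCm38. It was found in 46 of the 70 members, between 21 and 58 bases after the stop codon with a median of 31, and in 54 of 21901 protein-coding genes of the annotation (0.247%). The motif is named here as the histone stem-loop, and it was read on the transcript strand. The sequences below are those of 3 genes that rose in KO, of 2 H1 genes with lower mean values in KO, and of 3 H4 genes with high counts, written 5′ to 3′ on the gene's strand with T for U. Capitals mark the stem-loop itself, and flanks are in lower case.
Hist1h2bh: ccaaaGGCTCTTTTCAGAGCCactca
Hist2h2ac: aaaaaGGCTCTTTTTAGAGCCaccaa
Hist2h3c2: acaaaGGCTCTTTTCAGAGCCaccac
Hist1h1e: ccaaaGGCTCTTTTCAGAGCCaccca
Hist1h1c: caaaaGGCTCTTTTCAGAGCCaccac
Hist1h4d: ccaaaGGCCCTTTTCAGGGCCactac
Hist1h4h: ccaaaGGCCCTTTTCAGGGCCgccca
Hist2h4: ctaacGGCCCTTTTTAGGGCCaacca
The capitals lie at chr13:23542928-23542943 on the minus strand for Hist1h2bh, chr3:96220418-96220433 on the minus strand for Hist2h2ac, chr3:96238485-96238500 on the minus strand for Hist2h3c2 and chr13:23621782-23621797 on the minus strand for Hist1h1e. They lie at chr13:23739512-23739527 on the plus strand for Hist1h1c, chr13:23581950-23581965 on the plus strand for Hist1h4d, chr13:23531458-23531473 on the plus strand for Hist1h4h and chr3:96262939-96262954 on the minus strand for Hist2h4. All lie in the untranslated region after the stop codon.

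The members held 8 versions of the stem-loop. The version printed for Hist1h2bh, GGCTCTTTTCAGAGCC, was in 26 members, and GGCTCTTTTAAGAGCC was in 6. The version printed for Hist1h4d, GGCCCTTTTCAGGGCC, was in 7. The match was absent from the annotated transcripts of Hist1h1a and Hist1h1b. The tested members with a match had a median log2 fold change of 0.55 (36 genes) and those without one 0.61 (13 genes). Without KO2 the medians were 0.12 and 0.50, and KO2 was the highest library in 86.1% and 69.2% of these members. A match can be found only where the annotated transcript reaches past the stop codon. Hist1h4k and Hist1h2bl, without a match, are annotated over 312 and 381 bases, about their coding length. This split therefore cannot tell genes with a stem-loop from genes without one, and nothing is concluded from it.

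The start sites of 62 members were matched to a RefSeq promoter on GRCm38.p6, from 250 bases before to 50 bases after the start. The letters CCAAT, searched on both strands, were in 53 of these (85.5%) against 37.4% of all 32851 promoters of that length, and by class in every H1, H2A, H2B and H3 promoter matched but in 3 of 12 H4 promoters (25%). TATAAA was in 35 members (56.5%) against 13.6% of all promoters. The octamer ATTTGCAT was in 13 members (21%) against 1.74% of all promoters, and all 13 were H2A (7 of 18) or H2B genes (6 of 16). These sites are shown for 3 H2B genes that were tested, on the gene's strand with the octamer in capitals.
Hist1h2bb: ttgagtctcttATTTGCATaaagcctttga
Hist1h2bg: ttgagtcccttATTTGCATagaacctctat
Hist1h2bk: catttcactttATTTGCATacgaagttcta
The printed stretches lie at chr13:23746633-23746662, chr13:23571330-23571359 and chr13:22035780-22035809, all on the plus strand. A match describes the letters in the window and was not tested as a binding site. Some H2A and H2B genes lie head to head, as do Hist1h2ae (minus strand, ending at 23571121) and Hist1h2bg (plus strand, from 23571408). Windows of such pairs can overlap and both strands were searched, so 1 site can count for both genes. The motif counts are therefore of promoters, not of separate sites.

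The libraries held 33605258 to 40558740 counted reads, and CPM, the counts relative to the library total, were scaled with TMM factors of 0.949 to 1.08. RNA of the targeted gene, Hnrnpa2b1 (ENSMUSG00000004980), stood at 159, 195 and 249 CPM in the KO libraries, in the order of their numbers, against 225, 229 and 252 CPM for WT. The ranges overlapped, with a log2 fold change, given throughout as KO relative to WT, of −0.23 (standard error 0.18, edgeR quasi-likelihood test, adjusted p = 0.381, exact two-sided permutation p = 0.3, where 0.1 is the smallest p that 3 against 3 libraries allow). The RNA level therefore did not check the labels, and each direction below is between libraries as labelled. For the clones themselves, the methods report a check of the knockout at the protein level, by immunofluorescence and Western blotting. The myogenic markers Myod1, Myog, Des, Ckm, Acta1 and Mymk (listed as Tmem8c) were all detected. They summed to 13070, 6497 and 5181 CPM in KO and 9488, 7264 and 8901 CPM in WT. KO1 was thus above, and KO2 and KO3 were below, all WT libraries. Of these markers, Myod1 was higher in KO (log2 fold change 0.99, edgeR adjusted p = 0.0141), and the other 5 were not called. The defining endothelial (Pecam1, Cdh5), epithelial (Epcam, Cdh1) and adipocyte (Adipoq, Plin1) markers and Ptprc of leukocytes were at most 0.296 CPM, except Cdh1 at 2.21 CPM in KO1. Cd68 of leukocytes lay at 1.86 to 3.41 CPM.

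In total the histone genes took 0.0911%, 0.210% and 0.109% of the counts of KO1, KO2 and KO3, and 0.114%, 0.101% and 0.114% of those of WT1, WT2 and WT3. Their summed level was 929, 1948 and 1019 CPM in the KO libraries and 1193, 1038 and 1201 CPM in the WT libraries. KO2 stood at 2.00 times the mean of KO1 and KO3 and at 1.62 times the highest other library, whereas KO1 and KO3 lay below all 3 WT libraries. In TPM, which corrects for transcript length, the sums were 1181, 3081 and 1754 in KO and 1520, 1486 and 1594 in WT, so that KO3 stood above the WT libraries on this scale. In bulk RNA, fewer cells that carry a message and less of it per cell cannot be told apart.

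KO2 was high in each of the 5 classes. The H4 genes, whose protein pairs with H3 in the nucleosome core, summed to 285, 676 and 302 CPM in KO and 314, 337 and 336 CPM in WT. The H2B genes summed to 133, 317 and 170 CPM in KO and 143, 128 and 171 CPM in WT. The H3 genes summed to 83.6, 190 and 131 CPM in KO and 73.3, 74.0 and 108 CPM in WT. For H4 and H2B the other KO libraries lay within or below the WT range, while for H3 KO3 was above all WT libraries and KO1 was inside their range. The H2A genes summed to 16.6, 37.1 and 20.6 CPM in KO and 16.0, 15.4 and 23.8 CPM in WT. Hist1h2al, typed as a processed pseudogene, held 43.1%, 65.9% and 51.8% of the H2A counts in KO and 63.2%, 61.1% and 63.3% in WT. The H2A sums, with their high KO2 value, thus follow that row to a large extent. The H1 genes summed to 411, 727 and 396 CPM in KO and 647, 484 and 562 CPM in WT and here, as in H4, both other KO libraries fell below all WT libraries.

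**Figure D1:**
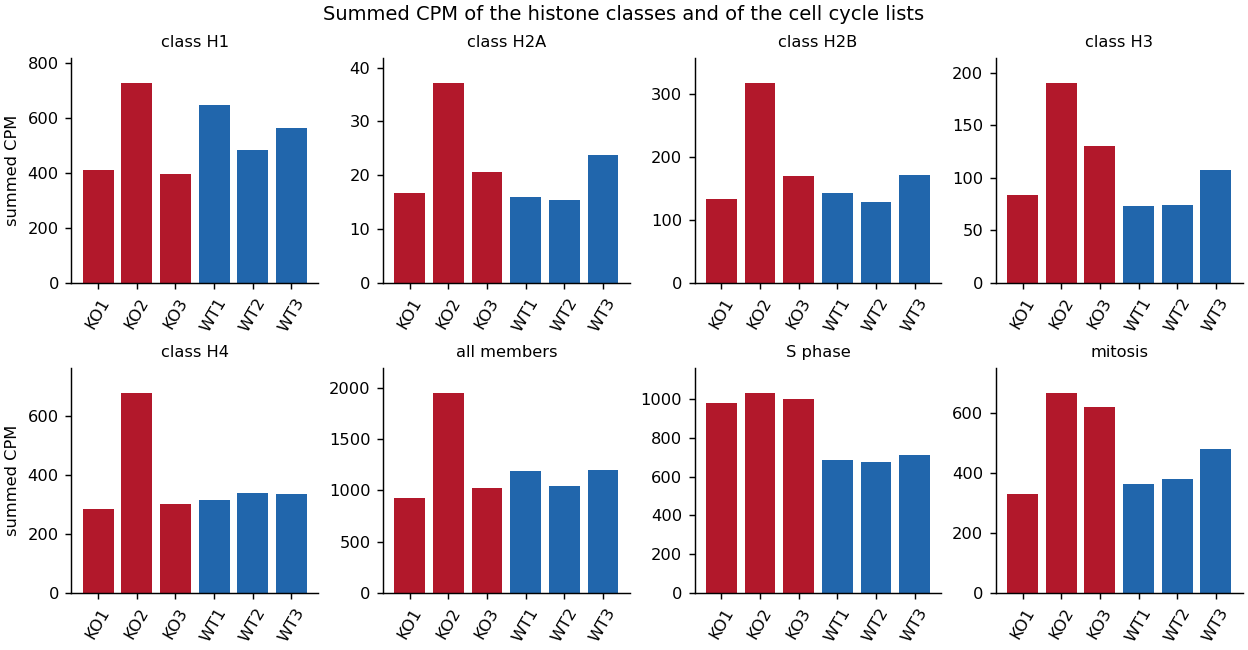
Summed CPM per library (vertical axes, each from 0) of the histone classes H1, H2A, H2B, H3 and H4, of all members, and of the S phase and mitosis lists; bars are single libraries, KO in red and WT in blue. KO2 has the highest bar in every histone panel, with 1948 CPM over all members, while the 3 KO bars of the S phase list lie between 980 and 1032 CPM, all above the WT bars.

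Gene by gene, KO2 held the highest CPM of the 6 libraries in 40 of the 49 tested members (81.6%), against 19.6% of all 14828 tested genes. By class this was 12 of 12 H4, 9 of 10 H3, 11 of 14 H2B, 5 of 8 H2A and 3 of 5 H1 genes. KO1 was the lowest KO library in 38 of the 49. Among the WT libraries, WT3 was the highest in 33 of the 49. For the KO1 and WT3 counts no share of all tested genes is given, so they are not read as particular to the members. On log2(CPM + 1), the median difference of a tested member from its WT mean came to −0.13 for KO1, to 1.02 for KO2 and to 0.23 for KO3, with −0.15, −0.14 and 0.18 for the WT libraries, while the same median over all tested genes lay between −0.0011 and 0.013 in each library.

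**Figure D2:**
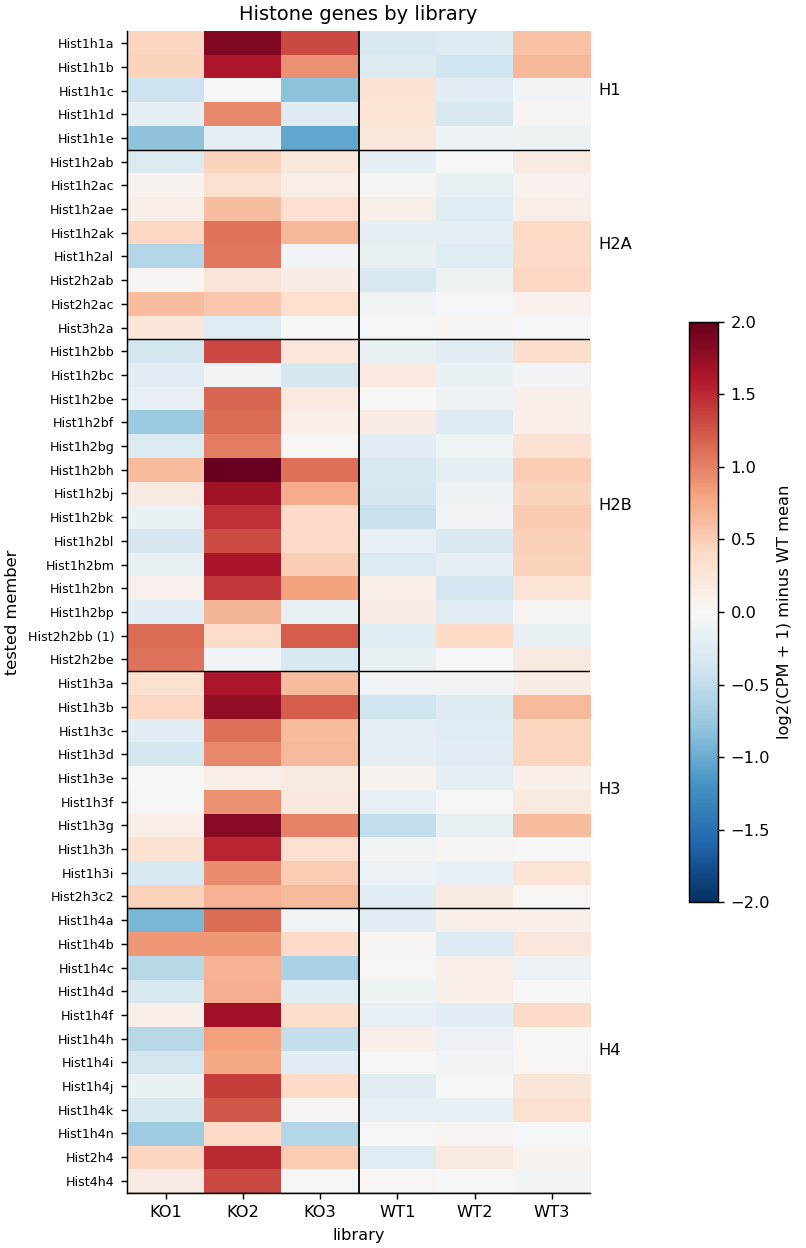
Each of the 49 tested members (rows, grouped by class) in each library (columns), coloured by log2(CPM + 1) minus the mean of the WT libraries, red for higher and blue for lower, with the scale ending at 2 in either direction. The KO2 column is red for nearly every core histone gene, whereas Hist1h1e and Hist1h1c are blue or pale in all 3 KO columns; the row Hist2h2bb (1) is the gene model that the annotation types as a long non-coding RNA.

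Tested across all genes with edgeR, 4 of the 49 members (8.16%) were higher in KO, against 12.1% of all tested genes called higher, and 0 were lower, against 10.6% called lower. At an unadjusted p under 0.05 there were 16 members (32.7%), against 39% of all tested genes. In this fit the share of members called was below that of all genes in both directions, which did not hold in other fits given next. The median log2 fold change of the tested members was 0.57 against 0.03 for all tested genes, and 44 of 49 values were above 0. All KO libraries were above all WT libraries in 8 members (16.3%), against 22.7% of all tested genes, and below them in 1 (2.04%), against 21.6%.

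Both the calls and the median turned on single libraries. Without KO2 the median was 0.17 and 32 of 49 values were above 0. Then 1 member was higher (9.43% of all tested genes were) and 3 were lower (8.29% of all), and none of the 4 members called with all libraries was among them. Without KO1, in contrast, 18 of 50 members (36%) were higher, against 15.5% of all genes in that fit, so the members exceeded the background there. Without KO3, WT1 or WT3 the number was 0 (7.8%, 2.96% and 4.03% of all genes were higher), and without WT2 it was 1 (6.95%). With all libraries, DESeq2 called 14 of 61 members higher (23%), against 7.03% of all 30252 genes fitted, and 1 lower (6.68% of all). EdgeR without a filter on low counts called 17 of the 61 higher (27.9%), against 7.67%, and 1 lower (7.33% of all). Over the 49 members and 14828 genes that pass the filter, the shares called higher were 28.6% against 13.6% by DESeq2 and 34.7% against 14% by edgeR fitted without the filter. Whether the members' share lay above or below that of all genes thus depended on the fit.

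**Figure D3:**
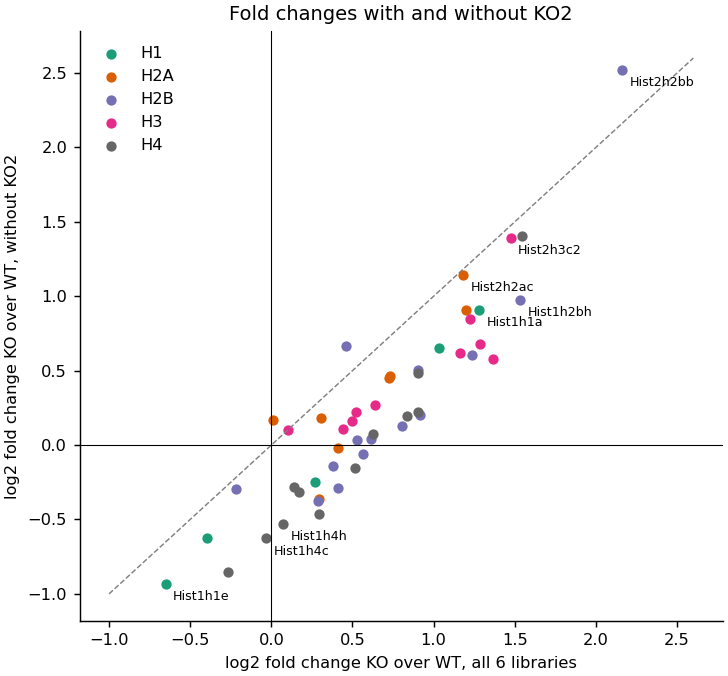
Log2 fold change (KO relative to WT) of the 49 tested members with all 6 libraries (horizontal axis) and without KO2 (vertical axis), coloured by class, with equal values on the dashed line and the members called in either fit named. Most points lie below the dashed line, and the median falls from 0.57 to 0.17, whereas Hist2h2ac and Hist2h3c2 stay near the line.

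The 4 members that rose in KO came from 4 classes. Hist1h2bh (ENSMUSG00000064168), an H2B gene on chromosome 13 from 23542970 to 23543357, had 6.88, 20.5 and 9.91 CPM in KO and 3.09, 3.47 and 6.28 CPM in WT. All KO libraries were above all WT libraries, WT3 being the nearest to KO1. Its mean was 12.4 ± 7.12 CPM (SD, n = 3) in KO and 4.28 ± 1.74 CPM in WT, with a log2 fold change of 1.53 (standard error 0.45, edgeR adjusted p = 0.0432). Without KO2 the value was 0.98 with an adjusted p of 0.0975.

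Hist1h1a (ENSMUSG00000049539), a linker histone H1 gene on chromosome 13 from 23763717 to 23764358, had 35.1, 96.4 and 66.0 CPM in KO and 20.5, 21.3 and 39.4 CPM in WT. KO1 lay below WT3, so the groups overlapped. Its log2 fold change was 1.28 (standard error 0.39, edgeR adjusted p = 0.0495), and 0.91 without KO2 (adjusted p = 0.12).

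The other 2 lay in the smaller histone cluster on chromosome 3 and were low. Hist2h2ac (ENSMUSG00000068855), an H2A gene from 96220361 to 96220880, had 1.26, 1.15 and 0.854 CPM in KO and 0.405, 0.457 and 0.566 CPM in WT, or 35 to 50 and 14 to 21 counts. Hist2h3c2 (ENSMUSG00000081058), an H3 gene from 96238108 to 96239127, had 0.923, 1.26 and 1.20 CPM in KO and 0.202, 0.579 and 0.431 CPM in WT, or 33 to 55 and 7 to 19 counts. In both genes the groups did not overlap. The log2 fold changes were 1.18 (standard error 0.35, edgeR adjusted p = 0.0457) and 1.48 (standard error 0.44, edgeR adjusted p = 0.0462), and without KO2 they were 1.14 and 1.39 with adjusted p of 0.0941 and 0.0961. Of the transcript sequence of Hist2h3c2, 59.4% of windows of 150 bases also occur in another gene's transcript, against 0% for Hist2h2ac.

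The linker histones divided by gene. H1 binds the DNA that enters and leaves the nucleosome, and its genes differ in when they are expressed, with Hist1h1a and Hist1h1b most tied to dividing cells and Hist1h1c also made with a poly(A) tail. Hist1h1b had 26.4, 60.8 and 37.0 CPM in KO and 15.6, 14.3 and 30.8 CPM in WT, where KO1 lay below WT3 (log2 fold change 1.03, edgeR adjusted p = 0.0845, DESeq2 adjusted p = 0.0249). Hist1h1e (ENSMUSG00000051627), on chromosome 13 from 23621755 to 23622502 and the H1 gene with the highest TPM, had 147, 225 and 125 CPM in KO and 303, 237 and 240 CPM in WT. It was the 1 member whose KO libraries were all below the WT libraries, although KO2 and WT2 were close, and its log2 fold change was −0.65 (standard error 0.23, edgeR adjusted p = 0.0787).

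Without KO2, Hist1h1e was lower in KO, with a log2 fold change of −0.93 (edgeR adjusted p = 0.0179), and DESeq2 on all libraries also called it (−0.67, adjusted p = 0.0401). Hist1h1c had 119, 156 and 88.7 CPM in KO and 192, 134 and 152 CPM in WT, with overlapping groups (log2 fold change −0.40, edgeR adjusted p = 0.232). Hist1h1d had 83.3, 188 and 79.8 CPM in KO and 115, 76.0 and 99.4 CPM in WT, with KO2 alone above the WT range (log2 fold change 0.27, edgeR adjusted p = 0.586, and −0.25 without KO2). The testis H1 gene Hist1h1t held 1, 13 and 3 counts in KO and 4, 2 and 6 in WT and was not tested.

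Within each library, the makeup of the H1 messages differed between the groups more clearly than their level did. Of the TPM of all H1 genes, Hist1h1a and Hist1h1b together made up 18.6%, 25.5% and 31.0% in KO and 6.97%, 9.10% and 15.1% in WT. Hist1h1c and Hist1h1e together made up 58.4%, 46.4% and 47.5% in KO and 72.4%, 73.0% and 65.0% in WT. Neither pair of ranges overlapped, and the shares do not depend on the scaling between libraries. Of the second pair, Hist1h1e alone separated the groups, at 34.7% to 42.0% in KO and 49.5% to 57.2% in WT, while Hist1h1c, at 11.7% to 16.4% and 15.5% to 17.1%, overlapped. On counts the first pair made up 15.0%, 21.6% and 26.0% in KO and 5.59%, 7.37% and 12.5% in WT. Hist1h1d, in neither pair, also had a higher share in KO without overlap, on counts and on TPM. Its count shares were 20.29%, 25.81% and 20.12% in KO and 17.84%, 15.71% and 17.68% in WT. Shares of a class add up to its whole, so these rises and the fall of Hist1h1e are not separate observations. In each of the other classes some genes also had count shares without overlap. Both pairs were chosen after the values were seen and were given no test. No window of Hist1h1a, Hist1h1b, Hist1h1c or Hist1h1d was shared with another gene, and 19.5% of those of Hist1h1e were.

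**Figure D4:**
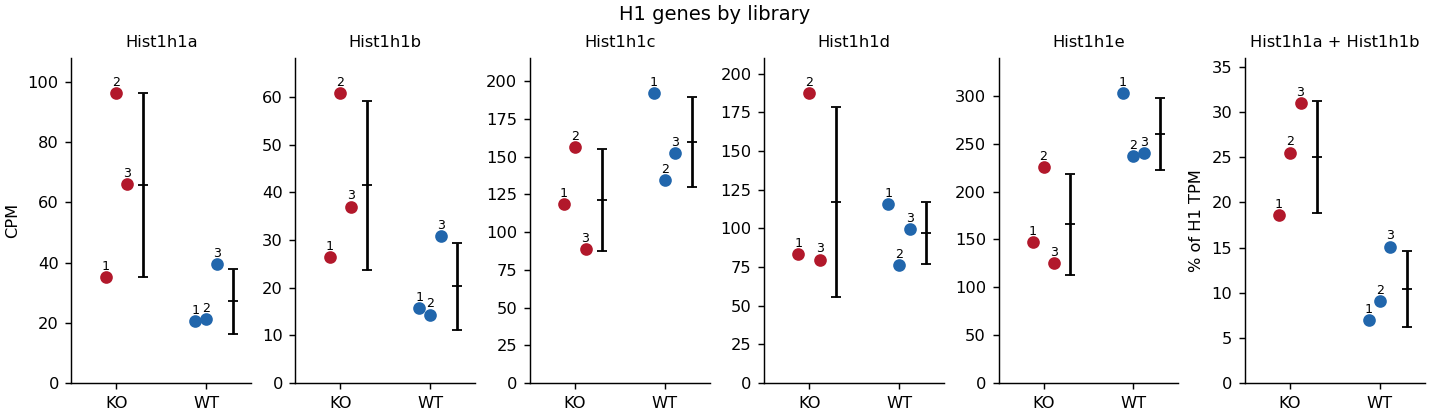
CPM (vertical axes, from 0) of the 5 tested H1 genes in each KO (red) and WT (blue) library, and in the last panel the percent of H1 TPM from Hist1h1a and Hist1h1b; numbers mark the replicate and black bars the mean ± SD of 3 libraries. The share lies between 18.6% and 31.0% in KO and between 6.97% and 15.1% in WT, while the CPM of 4 of the 5 genes overlap between the groups, the exception being Hist1h1e.

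In H4 0 of the 12 tested members were called by edgeR, against 12.1% of all tested genes called higher and 10.6% called lower. DESeq2 called Hist1h4b (log2 fold change 1.53, adjusted p = 0.0240) and Hist2h4 (0.88, adjusted p = 0.0191) higher. By DESeq2, 13.6% of all genes that pass the filter were higher. Hist1h4d (ENSMUSG00000061482), on chromosome 13 from 23581598 to 23581990 and the member with the highest TPM, had 94.7, 197 and 100 CPM in KO and 110, 127 and 118 CPM in WT. KO2 was above and KO1 and KO3 below the WT range (log2 fold change 0.14, edgeR adjusted p = 0.734). Hist1h4h showed the same order, with 29.0, 76.6 and 30.7 CPM in KO and 46.2, 39.5 and 44.0 CPM in WT (log2 fold change 0.07, edgeR adjusted p = 0.898). Without KO2, Hist1h4h (−0.53, edgeR adjusted p = 0.0458) and Hist1h4c (−0.63, edgeR adjusted p = 0.0334) were lower in KO, as were 8.29% of all tested genes. The H4 values with all libraries ran from −0.26 for Hist1h4n to 1.54 for Hist1h4b, which held only 7 to 74 counts.

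The H4 gene of the chromosome 3 cluster differed in pattern from Hist1h4d and Hist1h4h. Hist2h4 (chromosome 3 from 96261682 to 96263311) had 44.0, 92.3 and 46.5 CPM in KO and 27.0, 36.6 and 33.9 CPM in WT, with no overlap (log2 fold change 0.91, standard error 0.29, edgeR adjusted p = 0.0585). Of all H4 counts in a library it took 15.4%, 13.6% and 15.4% in KO and 8.62%, 10.9% and 10.1% in WT. The share of Hist1h4d was 33.3%, 29.2% and 33.2% in KO and 35.1%, 37.7% and 35.2% in WT, and that of Hist1h4h was 10.2%, 11.3% and 10.2% in KO and 14.7%, 11.7% and 13.1% in WT. On counts the shares of all 3 genes did not overlap between the groups, higher in KO for Hist2h4 and lower for the other 2. This was not particular to them. Hist1h4b of chromosome 13 also had a higher count share in KO (0.5893%, 0.2505% and 0.3075%, against 0.166%, 0.06323% and 0.2163%). Hist1h4n, Hist1h4i and Hist1h4c had lower ones without overlap, while the remaining tested H4 genes overlapped. On TPM the share of Hist2h4, at 4.01%, 3.27% and 3.84% in KO and 2.03%, 2.55% and 2.30% in WT, again did not overlap, whereas those of Hist1h4d (32.0% to 35.9% against 33.8% to 36.9%) and Hist1h4h (9.63% to 12.1% against 10.4% to 12.6%) did. No window of Hist2h4 or Hist1h4d was shared with another gene.

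All 10 tested H3 genes had values above 0, also without KO2, and edgeR called 1 of them, Hist2h3c2 (10%, against 12.1% of all genes). DESeq2, which called 13.6% of all genes that pass the filter higher, called 5 of the 10, adding Hist1h3h (adjusted p = 0.0344), Hist1h3g (0.0361), Hist1h3b (0.0101) and Hist1h3a (0.0150). By TPM the highest were Hist1h3g, with 7.75, 27.1 and 14.8 CPM in KO and 4.66, 6.16 and 11.4 CPM in WT (log2 fold change 1.16, edgeR adjusted p = 0.117), and Hist1h3b, with 14.8, 39.6 and 26.5 CPM in KO and 8.01, 8.93 and 17.6 CPM in WT (1.23, edgeR adjusted p = 0.0666). In both, KO2 and KO3 were above all WT libraries and KO1 was below WT3. Hist1h3e varied least, with 17.8, 19.1 and 20.02 CPM in KO and 18.6, 15.5 and 18.9 CPM in WT (0.10, edgeR adjusted p = 0.632). The share of Hist1h3b in the H3 counts was 17.7%, 20.8% and 20.3% in KO and 10.9%, 12.1% and 16.3% in WT.

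In H2B, Hist1h2bb was the highest by TPM, with 17.9, 60.3 and 27.6 CPM in KO and 21.2, 20.1 and 30.3 CPM in WT. Only KO2 left the WT range upwards (log2 fold change 0.57, edgeR adjusted p = 0.342, and −0.06 without KO2). Hist1h2bc, which can carry a poly(A) tail, had 32.5, 36.7 and 29.6 CPM in KO and 43.7, 34.5 and 36.4 CPM in WT, without the rise of KO2 on this scale (−0.22, edgeR adjusted p = 0.314), although in TPM, at 30.6, 53.8 and 45.4 in KO and 46.4, 37.8 and 36.7 in WT, KO2 was the highest. Hist2h2be, another member with a poly(A) form, had 8.25, 3.21 and 2.51 CPM in KO and 2.92, 3.29 and 3.93 CPM in WT, where KO1 alone stood out. Summed over Hist1h1c, Hist1h2bc and Hist2h2be, KO2 stood at 1.40 times the mean of KO1 and KO3, against 2.00 over all members. Of the H2B counts, Hist1h2bh took 5.18%, 6.45% and 5.83% in KO and 2.17%, 2.72% and 3.68% in WT.

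A row named Hist2h2bb (ENSMUSG00000050936), on chromosome 3 from 96269721 to 96279001, had the largest fold change among the members. Its counts were 67, 31 and 84 in KO and 4, 24 and 7 in WT, or 1.87, 0.710 and 2.05 CPM against 0.116, 0.731 and 0.189 CPM. KO2 lay just below WT2 (log2 fold change 2.16, standard error 0.71, edgeR adjusted p = 0.0625, DESeq2 adjusted p = 0.0102), and without KO2 it was the 1 member called higher (2.52, edgeR adjusted p = 0.0467). GENCODE types this gene as a long intergenic non-coding RNA, and the protein-coding row of the same symbol (ENSMUSG00000105827), which lies inside it, had no count in any library.

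H2A was the class that the counts covered least. Of its 20 genes 8 were tested and 6 had no count in any library, yet 16 had at least 1 TPM in 3 or more libraries. Hist1h2al, the highest by TPM and typed as a processed pseudogene, had 7.16, 24.5 and 10.7 CPM in KO and 10.1, 9.42 and 15.0 CPM in WT (log2 fold change 0.29, edgeR adjusted p = 0.648, and −0.36 without KO2). It lies apart from the other chromosome 13 members, from 51202688 to 51203065. Hist1h2ak had 1.59, 3.11 and 2.10 CPM in KO and 0.694, 0.701 and 1.56 CPM in WT, just without overlap (1.20, edgeR adjusted p = 0.0838).

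Counts and TPM gave different weights to members with shared sequence. Of 22 members with over 50% of their windows of 150 bases in another gene's transcript, 6 were tested and 7 had no count, and they held 2.98% of all member counts but 16.1% of the TPM. Of the 15 members with no shared window, 12 were tested, and they held 43.0% of the counts and 33.4% of the TPM. A gap was also seen without shared windows, as Hist1h2ak had a mean of 64 counts and 32.3 TPM and Hist2h2ac 30 counts and 12.4 TPM. Hist1h2ao and Hist1h2ap, with over 90% of windows shared, had 0 counts but 6.60 to 29.6 and 6.76 to 29.9 TPM, with KO2 the highest in both. Hist2h2aa1 was listed at 54.8 TPM in KO1 and at 0 in the other 5 libraries, with 0 counts in all, so its TPM was not read as expression of that gene. Levels of such members are uncertain, since reads that fit several copies can be dropped or divided among them.

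**Figure D5:**
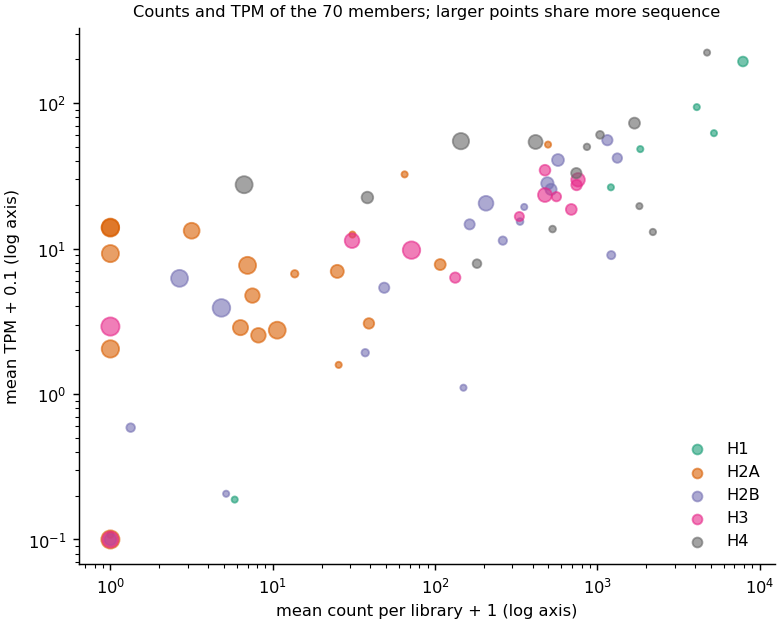
Mean count per library plus 1 (horizontal, log axis) and mean TPM plus 0.1 (vertical, log axis) of the 70 members, coloured by class, with larger points for a larger percent of 150-base windows shared with another gene. The points at 0 counts with TPM well above 0 are large, mostly H2A genes, and 4 of the 21 untested members have a mean of at least 10 TPM.

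The 3 germline members were low and none was tested. Hist1h2aa had no count in any library and Hist1h2ba had 1 count in KO2 and KO3 and none elsewhere, where up to 3 counts were taken as the limit that a library can show, while Hist1h1t passed this limit in KO2, WT1 and WT3, with 13 counts at most. By location, 56 members lie on chromosome 13, 11 on chromosome 3, 2 on chromosome 11 and 1 on chromosome 6. The median log2 fold change was 0.53 on chromosome 13 (41 tested) and 1.04 on chromosome 3 (6 tested). By edgeR, 2 members were higher on each, or 4.88% and 33.3% of those tested, against 12.1% of all genes. Summed over the chromosome 3 members, the level was 56.9, 99.4 and 53.8 CPM in KO and 30.9, 42.1 and 40.1 CPM in WT, with no overlap, most of it from Hist2h4. Of the other genes within 5 Mb of the chromosome 13 cluster, 39 were tested, with a median of −0.05, and by edgeR 0 were higher (12.1% of all genes were) and 10 lower (25.6%, against 10.6% of all), while 16 had an unadjusted p under 0.05 (39% of all genes did). Without KO2, of 42 tested, 1 was higher (9.43% of all genes were) and 6 were lower (8.29% of all were).

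The cell cycle genes shared part of the histone order of libraries. The S phase list, 38 genes of DNA replication and nucleotide supply, summed to 980, 1032 and 1002 CPM in KO and 687, 678 and 715 CPM in WT. In this list 14 rose (36.8%, against 12.1% of all genes) and 1 fell (10.6% of all genes did), with a median log2 fold change of 0.62. Without KO2, 7 rose and 1 fell, with a median of 0.54, when 9.43% of all genes rose and 8.29% fell. Rrm2, a subunit of ribonucleotide reductase, had 307, 156 and 212 CPM in KO and 73.0, 52.9 and 70.9 CPM in WT (log2 fold change 1.78, edgeR adjusted p = 0.00488), and Ccne2, cyclin E2, rose by 1.41 on the log2 scale (edgeR adjusted p = 0.00829). The 1 that fell was Gins4 (−0.53, edgeR adjusted p = 0.0255). KO2 was level with the other KO libraries in this sum, at 1.04 times the mean of KO1 and KO3, but this turned on Rrm2. Without Rrm2 the KO sums were 673, 876 and 790 CPM and the WT sums 614, 625 and 644 CPM, with KO2 at 1.20 times the mean of KO1 and KO3. Gene by gene, KO2 was the highest library in 19 of the 38 (50%), against 19.6% of all tested genes. The ratio of the member sum to the S phase sum was 0.948, 1.89 and 1.02 in KO and 1.74, 1.53 and 1.68 in WT, so that relative to these genes KO1 and KO3 were below and KO2 above the WT libraries, and without Rrm2, at 1.38, 2.22 and 1.29 against 1.94, 1.66 and 1.87, the order was similar.

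The mitosis list, with Mki67, Top2a and cyclins, summed to 331, 667 and 620 CPM in KO and 363, 381 and 481 CPM in WT. Of its 15 genes 0 were called by edgeR, against 12.1% of all tested genes called higher and 10.6% called lower. At an unadjusted p under 0.05 there was 1, against 39% of all tested genes. KO2 was the highest library in 11 of the 15 (73.3%), close to its 81.6% of the histone members. In the sum KO2 and KO3 were above and KO1 below all WT libraries, and WT3 was the highest WT library, as in most histone genes. KO3 thus had nearly the mitosis level of KO2 without its histone level. Whether the makeup of cycling cells in each library had a part in the histone values was not tested.

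Among 19 genes of histone transcription and 3′ end processing, 3 rose and 3 fell, each 15.8% of the list, against 12.1% and 10.6% of all genes. Lsm11, the U7 snRNP subunit, had 13.3, 9.09 and 7.45 CPM in KO and 40.3, 32.1 and 30.9 CPM in WT, with a log2 fold change of −1.79 (standard error 0.24, edgeR adjusted p = 0.00347). Srrt, which links the cap-binding complex to RNA processing, rose by 1.11 (edgeR adjusted p = 0.00883), with 79.5, 119 and 116 CPM against 40.1, 49.4 and 56.2 CPM. Ncbp2, of the cap-binding complex, and Cpsf3, the nuclease that cuts the message, were higher by 0.93 and 0.38. Eri1, an exonuclease that trims the histone end, and Npat, a coactivator of histone genes, were lower, with log2 fold changes of −0.73 and −0.45. Without KO2, 2 rose and 2 fell, when 9.43% of all genes rose and 8.29% fell. Cpsf3 (0.40, edgeR adjusted p = 0.0630) and Npat (−0.40, edgeR adjusted p = 0.10) were then no longer called, with log2 fold changes close to those with all libraries. Slbp was 17.9, 21.05 and 21.6 CPM in KO and 15.5, 14.7 and 15.7 CPM in WT, with no overlap but no call (0.40, edgeR adjusted p = 0.0763).

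Of 19 histone chaperone genes 3 rose (15.8%, against 12.1% of all genes) and 0 fell (10.6% of all genes did). Without KO2, 1 rose (9.43% of all genes did) and 0 fell (8.29% of all did). The rises were in Chaf1b (1.51, edgeR adjusted p = 0.0240) and Chaf1a (1.02, edgeR adjusted p = 0.0123), of the complex that deposits histones behind the replication fork, and in Asf1b (0.86, edgeR adjusted p = 0.0213). Without KO2, Chaf1a kept its call, whereas Chaf1b and Asf1b, with log2 fold changes of 1.31 and 0.72, did not (edgeR adjusted p = 0.0580 and 0.0508), and Chaf1b lost it in 6 of 15 alternatives. Of 11 variant histone genes, most of which are made outside S phase with poly(A) tails, 1 rose (9.09%, against 12.1% of all genes) and 2 fell (10.6% of all genes did). One of the variants, H2afx, is among the genes with an annotated stem-loop. H2afy2 and H2afy, which encode macroH2A proteins, had log2 fold changes of −1.49 (edgeR adjusted p = 0.0355) and −0.73 (edgeR adjusted p = 0.00996), and H3f3b, an H3.3 gene, had 0.70 (edgeR adjusted p = 0.0495). Without KO2, when 9.43% of all genes rose and 8.29% fell, 0 variants rose and 4 fell, since H3f3b, at a log2 fold change of 0.66, was not called (edgeR adjusted p = 0.0969) and the H2A variant genes H2afz and H2afv were (edgeR adjusted p = 0.0252 and 0.0386), and H2afy2 lost its call in 6 of 15 alternatives. The KO2 sum of the variants was 1.16 times the mean of KO1 and KO3.

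Other RNAs without a poly(A) tail did not share the histone order as a sum. KO2 was the highest library in 2 of the 7 tested (28.6%, against 19.6% of all tested genes). The list of 8, with the 7SK gene Rn7sk and the RNase P gene Rpph1, summed to 45984, 46189 and 34660 CPM in KO and 36769, 39209 and 50853 CPM in WT. Of its 7 tested genes 0 were called by edgeR, against 12.1% of all tested genes called higher and 10.6% called lower. With an unadjusted p under 0.05 there were 0, against 39% of all tested genes, and the median log2 fold change was −0.09. KO2 was close to KO1 and below WT3 in this sum, which Rn7sk and Rpph1 dominate. The 7SL gene Rn7s1 had 10.2, 15.5 and 5.54 CPM in KO and 12.1, 15.3 and 10.3 CPM in WT, so that, as in the histone sum, KO2 was the highest and KO1 and KO3 lay below all WT libraries, although KO3 and not KO1 was the lowest. Rn7s2 also had its highest value in KO2, and KO2 stood at 1.97, 1.80 and 1.60 times the mean of KO1 and KO3 for Rn7s1, Rn7s2 and Rpph1.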

How the data were processed

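Total RNA (Ribominus depletion, paired reads) of C2C12 cells gave 3 Hnrnpa2b1 KO and 3 WT libraries. The authors aligned reads with STAR and deposited raw read counts per gene of all 6 libraries, not normalized. They also deposited StringTie TPM values, scaled by transcript length and library. The submitters' processing notes also name FastQC, Trim Galore, featureCounts and Salmon. For the deposited counts and TPM, tool versions, strand use and the handling of multi-mapped reads are not given in the sources used here. The methods give a Salmon version only for a separate mapping to untranslated regions. The notes name mm9 and the methods GRCm39, but the deposited positions fit GRCm38 (83.2% of 45223 genes had identical positions in GENCODE M21), so GRCm38 is used. TPM of repeated gene IDs were summed.

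Counts were filtered with filterByExpr, scaled with TMM and fitted by genotype alone in edgeR 4.0.16 (R 4.3.3), whose quasi-likelihood test was two-sided and Benjamini-Hochberg adjusted over all genes at 0.05. Limma 3.58.1 on log2(TPM + 1) and DESeq2 1.42.0 were alternatives, as were other scalings, filters, pseudocounts, a replicate block and leaving out each library. Steps were tested on simulated data. With at least 33605258 counts per library, the spread between libraries far exceeded counting noise (chi-square per degree of freedom of 52.5 to 195 within a genotype), and no library repeated another.

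The members and lists were chosen with earlier results of these data known. Genes named by rule were the called members, the 2 members of each class with the highest mean TPM, 3 germline members, the 2 called genes with the largest change in each context list, and Hnrnpa2b1. Other genes were named after their values were seen. A window was shared when its 150 bases occur exactly in the transcript of another gene. All 70 members were matched to GENCODE M21, 68 by ID and 2 by symbol.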

Additional observations from a re-analysis of the deposited data

How the results depend on the processing

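The number of members higher in KO was 4 with all libraries and edgeR. It was 14 with DESeq2, 17 without a filter on low counts, 3 in limma on log2(TPM + 1) (5.08%, against 8.46% of all genes), and 0 in limma on log2(TPM + 0.1) and on log2(TPM + 1) without a filter, where 8.01% and 1.58% of all genes were higher. The number lower was 1 with DESeq2 and 1 without a filter. Leaving out 1 library at a time, the number higher ran from 0 to 18, the number lower from 0 to 3 and the median log2 fold change from 0.17 to 0.85. The median stayed above 0 in every alternative run. With the replicate number as a replicate block, 2 members were higher (4.08%, against 8.83% of all genes). The numbers do not pair the libraries: the correlation of deviations of same-numbered libraries was 0.172, −0.121 and −0.0744, and KO2 and KO3 each correlated best with a WT library of another number, so a call lost under the block is not read as a weaker effect.

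Without KO2 the log2 fold changes of 5 of the named members turned negative, and with single libraries left out they ran from −0.25 to 0.49 for Hist1h1d, −0.36 to 0.61 for Hist1h2al, −0.061 to 0.88 for Hist1h2bb, −0.28 to 0.32 for Hist1h4d and −0.53 to 0.31 for Hist1h4h. Hist1h4h was −0.087 with the replicate block, and Hist1h2bc was 0.07 in each of the 3 limma fits on TPM (0.0711 with a pseudocount of 1, with or without the filter, and 0.072 with 0.1). Of 15 alternatives, the call was lost in 8 for Hist1h2bh, 8 for Hist1h1a, 12 for Hist2h2ac and 9 for Hist2h3c2, and a call was gained in 3 each for Hist1h1e, Hist1h2ak, Hist1h3b and Hist1h3g. Apart from the libraries left out, the causes were not tested. Germline members were too low to be tested with edgeR and its filter, and Hist2h2ac and Hist2h3c2 were low, at 7 to 55 counts.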
